A study of Homo sapiens with 11 samples.

Results

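The aldo-keto and carbonyl reductases described here are 10 genes found by symbol among the 60605 features of the deposited table: AKR1A1, AKR1B1, AKR1B10, AKR1C1, AKR1C2, AKR1C3, AKR7A2, CBR1, CBR3 and CBR4. RNA with a polyA tail was sequenced from ARPE-19 cells, a human cell line with features of the retinal pigment epithelium (RPE). The groups were stable ARPE-19 lines after 4 days of expression of an open reading frame (ORF) for GFP (the control, n = 3 libraries), Oct4, Sox2, Klf4, or Oct4, Sox2 and Klf4 together (OSK; n = 2 libraries each). The library names of all 8 factor libraries carry the tag mC, which is not explained in the labels, and those of the 3 control libraries do not, so what it stands for cannot be told apart from the factors in any comparison with GFP. The series asked whether these reprogramming factors induce genes of oxidative defence. The species of the ORFs, the promoter that drives them and whether each line is a clone are not given in the sources used here. The labels also do not say whether replicates came from separate cultures, so p-values measure only the spread between these libraries.

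Aldo-keto reductases (AKR) and carbonyl reductases (CBR) use NADPH to turn aldehydes and ketones into alcohols. The AKR enzymes share a barrel-shaped fold, whereas the carbonyl reductases belong to the short-chain dehydrogenases and reductases. Their substrates include sugars, steroids, prostaglandins, quinones and the aldehydes formed when membrane lipids are oxidised. In the RPE such aldehydes arise in a cell that takes up photoreceptor outer segments rich in unsaturated lipid and retinal.

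Values are normalized counts, which are the authors' read counts divided by 1 factor per library. A library held from 15053300 to 19791775 recovered reads. Between 25853 and 26971 features had a read in 9 libraries, against 42956 in GFP replicate 1 and 32493 in OSK replicate 1. Some results that change without these libraries, but not all, are given with and without them. The delivered genes matched the labels: POU5F1, SOX2 and KLF4 each had means from 17670 to 67070 in the lines labelled with them and from 62.0 to 263 in GFP. The RPE marker RPE65 was at 0 in 7 of 11 libraries and at most 4.63 in the others, whereas the other 7 RPE markers were detected in all 11, among them MITF (747.5 to 3602.5) and OTX2 (1174.8 to 2372). Summed over the 8 RPE markers, the level was 12370 to 15838 in GFP, 4214 to 4759 in Oct4, 2407 to 2461 in Sox2, 7873 to 9358 in Klf4 and 5472 to 5801 in OSK. PMEL, MITF and TYRP1 weighed most in this sum in GFP, with means of 5147, 3406 and 2491. OTX2 did not follow the sum: its mean was 2320 in Klf4 and 1970 in OSK, against 1881 in GFP, 1494 in Oct4 and 1208 in Sox2. The part of the summed level in the results was not tested. Of markers of other cells, PTPRC (leukocytes) stayed at or below 2.24, DCT (melanocytes) at or below 9.93, PECAM1 (endothelium) at or below 20.9 and NANOG (pluripotent cells) at or below 16.9, and LIN28A, also of pluripotent cells, ran from 104 to 311. TUBB3, a neuronal tubulin, had a mean of 324 in GFP and of 48.4 to 107 in the factor lines, lower in all 4 by limma (-1.60 to -2.72). The epithelial keratin KRT8 fell by 1.18 in OSK, 0.57 in Oct4 and 0.27 in Klf4. Means of KRT18, the other epithelial keratin listed, were 5307 in GFP, 3314 in Oct4, 5015 in Sox2, 5099 in Klf4 and 3224 in OSK. The part of these markers in the results was not tested either.

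Sequence shared between the AKR1C genes bears on which of them a read is counted to. AKR1C1, AKR1C2 and AKR1C3 lie side by side on chromosome 10 (GRCh38, GENCODE release 29), at 4963253 to 4983283 on the plus strand, 4987400 to 5018031 on the minus strand and 5035354 to 5107686 on the plus strand. Over 969 coding bases, AKR1C1 and AKR1C2 differed at 19, with an identical stretch of up to 186 bases. AKR1C3 differed from AKR1C1 at 83 bases and from AKR1C2 at 87. The first 120 coding bases are shown because they let a reader see how few positions tell AKR1C1 and AKR1C2 apart, and that AKR1C3 differs at more. They run 5′ to 3′ from the start codon, are taken from GENCODE release 29 transcripts, and capitals mark bases that differ from AKR1C1 (4 in AKR1C2 and 16 in AKR1C3).
AKR1C1: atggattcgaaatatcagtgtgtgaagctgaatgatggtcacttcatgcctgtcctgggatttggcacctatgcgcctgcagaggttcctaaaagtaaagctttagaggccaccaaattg
AKR1C2: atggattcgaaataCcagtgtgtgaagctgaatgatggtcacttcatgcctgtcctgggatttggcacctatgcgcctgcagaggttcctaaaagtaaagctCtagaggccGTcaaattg
AKR1C3: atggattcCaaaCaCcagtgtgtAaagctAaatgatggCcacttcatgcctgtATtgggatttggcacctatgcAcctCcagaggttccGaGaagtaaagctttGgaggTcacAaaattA

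Of all 50-base stretches in their transcripts, 28.6% in AKR1C1 and 38.9% in AKR1C2 also occurred in another gene, against 4.53% in AKR1C3. How the authors' counting treated reads that fit several genes is not given in the sources used here, so the values of AKR1C1 and AKR1C2 are uncertain. Other overlaps were smaller or on the opposite strand. AKR1B10 shared 14.8% of its stretches, mainly with AKR1B15, and AKR7A2 shared 5.84% with AKR7L. CBR1 shared 16.5%, with AP000688.1 on the other strand.

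The 10 genes ranged from abundant to almost undetected. In GFP the mean level per kilobase of exon was highest for AKR7A2 (595), followed by AKR1B1 (366), AKR1A1 (276), CBR1 (194), CBR4 (86.0) and AKR1C3 (21.8). CBR3 stood at 1.68, and AKR1B10, AKR1C2 and AKR1C1 were under 1, at 0.950, 0.413 and 0.264. The order at the top depended on the line: on the same scale AKR7A2 and AKR1B1 stood at 846 and 297 in Klf4, but at 644 and 649.7 in OSK. CBR4 came below CBR1 in all 5 groups, at 125 against 149 in Oct4, where they were closest. Exon lengths cover all annotated transcripts of a gene, so these levels compare genes only roughly.

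**Figure D1:**
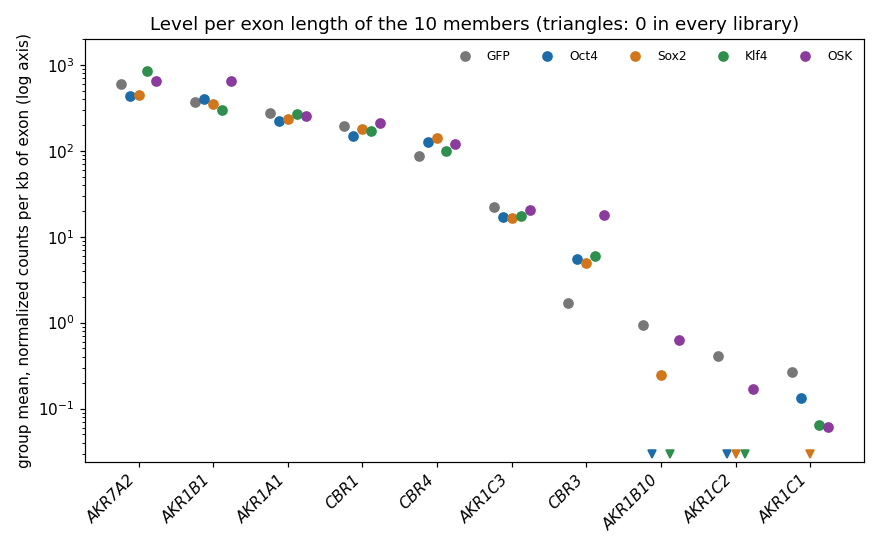
Group mean in normalized counts per kilobase of exon (y axis, log scale) for the 10 genes (x axis), with 1 point per group and triangles where every library of a group was at 0. The upper 6 genes lie above 10 in all groups, from AKR7A2 (595 in GFP) down to AKR1C3 (21.8 in GFP), and CBR3 rises from 1.68 in GFP to 17.8 in OSK.

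A gene was tested if it reached 10 normalized counts in at least 2 libraries, which 7 of the 10 did: AKR1A1, AKR1B1, AKR1C3, AKR7A2, CBR1, CBR3 and CBR4. CBR3 passed only through the OSK libraries. The test was limma on log2(value + 1) over 18828 genes, with Benjamini-Hochberg adjusted p-values and a threshold of 0.05. Differences below are log2 fold changes on that scale, with the standard error (SE), and understate the change of low genes. Against GFP, 4 of the 7 changed in Oct4 (1 higher, 3 lower), where 37.3% of all genes tested did (20.1% higher, 17.2% lower). In Sox2 3 changed (1 higher, 2 lower), against 41.6% of all genes (21.7% higher, 19.9% lower). In Klf4 1 changed (higher), against 33.5% of all genes (17.6% higher, 16.0% lower). In OSK AKR1B1 and CBR4 were higher, as was CBR3, which could be counted there only as higher since the OSK libraries brought it past the filter; 39.7% of all genes changed (19.7% higher, 20.0% lower). With shares this large among all genes, the counts among 7 genes are not read as particular to them. The 4 comparisons share the GFP libraries and are therefore not independent. With bulk RNA, fewer cells that express a gene and less RNA per cell cannot be told apart.

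**Figure D2:**
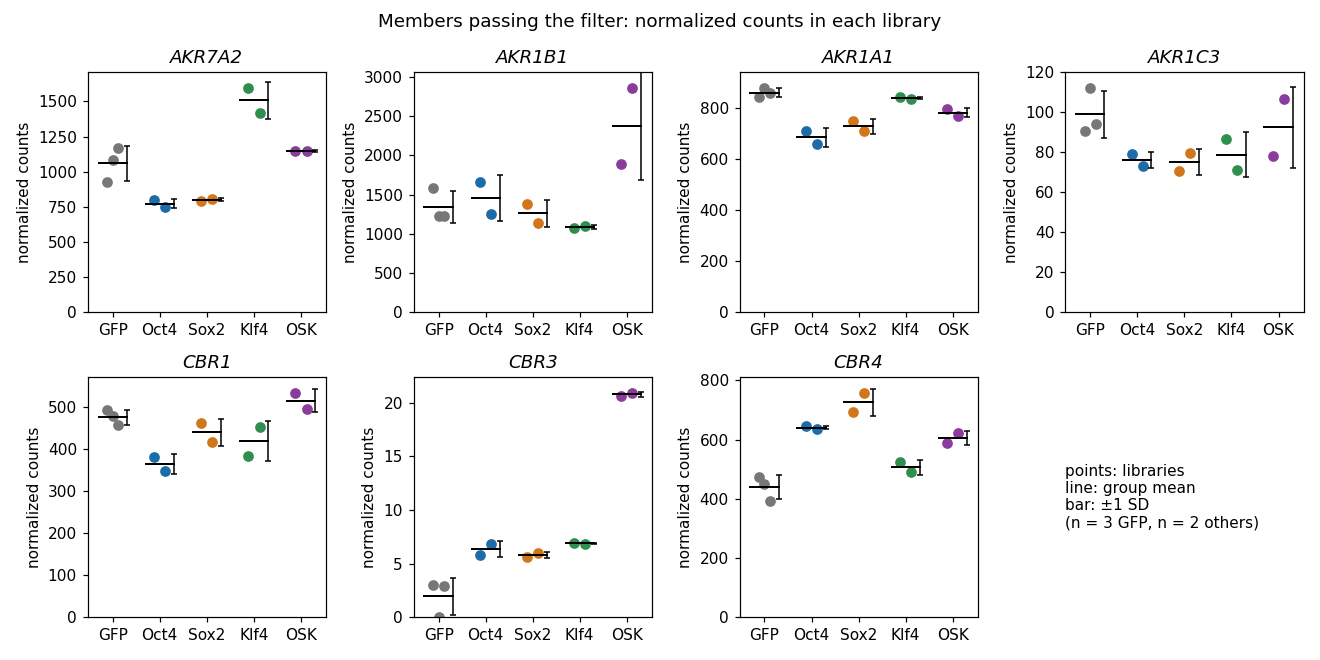
Normalized counts (y axis, from 0, a scale per gene) in each library for the 7 tested genes, grouped by line (x axis). Points are libraries, lines are group means and bars ± 1 SD (n = 3 for GFP, n = 2 for the others). AKR7A2 is highest in Klf4 (1598 and 1416), AKR1B1 and CBR3 are highest in OSK, and CBR4 is lowest in GFP.

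AKR7A2, which reduces succinic semialdehyde and the dialdehyde of aflatoxin, went down in 2 of the single-factor lines and up in the third. Libraries held 925, 1084 and 1168 in GFP, 797 and 749.7 in Oct4, 794 and 807 in Sox2, 1598 and 1416 in Klf4, and 1145 and 1150.5 in OSK, in normalized counts. All Oct4 and Sox2 libraries lay below all GFP libraries and both Klf4 libraries lay above them, while the OSK libraries fell inside the GFP range. By limma it fell by 0.45 in Oct4 (SE 0.09, adjusted p = 0.0011) and by 0.40 in Sox2 (SE 0.09, adjusted p = 0.00232), and rose by 0.51 in Klf4 (SE 0.09, adjusted p = 0.000407). The OSK difference was 0.12, with a 95% interval from -0.07 to 0.32 (limma adjusted p = 0.324). The gene lies on chromosome 1 at 19303965 to 19312146 on the minus strand.

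The lines also differed from one another in AKR7A2. Klf4 exceeded Oct4 by 0.96 (SE 0.10, limma adjusted p = 1.04e-06) and Sox2 by 0.91 (SE 0.10, limma adjusted p = 1.95e-06), the largest differences between single-factor lines among the 7 genes. OSK lay between them: it was above Oct4 by 0.57 (limma adjusted p = 0.000252) and Sox2 by 0.52 (limma adjusted p = 0.000588), and below Klf4, at -0.39 (limma adjusted p = 0.0102). In order of mean level the groups were Klf4, OSK, GFP, Sox2 and Oct4, and the neighbours OSK and GFP, and Sox2 and Oct4, did not differ beyond their spread. The OSK to Klf4 difference no longer passed without Klf4 replicate 1 (-0.30, limma adjusted p = 0.129), OSK replicate 1 (adjusted p = 0.0634) or OSK replicate 2 (adjusted p = 0.0651).

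AKR1B1, or aldose reductase, turns glucose into sorbitol in the first step of the polyol pathway and also reduces lipid aldehydes. It was higher in OSK than in every other line. Its normalized counts were 1579, 1224 and 1221 in GFP, 1659 and 1249.8 in Oct4, 1384.5 and 1142 in Sox2, 1069.9 and 1104 in Klf4, and 1892 and 2864 in OSK. Both OSK libraries lay above the other 9, but they differed from each other 1.51-fold. The OSK mean was 2378 ± 688 (SD, n = 2) against 1341 ± 206 (SD, n = 3) in GFP, a ratio of 1.77. The rise was 0.81 by limma (SE 0.16, adjusted p = 0.000691).

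In the single-factor lines AKR1B1 did not pass the test against GFP. The differences were 0.11 in Oct4 (95% interval -0.22 to 0.45), -0.08 in Sox2 (-0.42 to 0.26) and -0.29 in Klf4 (-0.63 to 0.04). OSK exceeded Oct4 by 0.69 (limma adjusted p = 0.00448), Sox2 by 0.89 (limma adjusted p = 0.000657) and Klf4 by 1.10 (limma adjusted p = 0.000221). OSK replicate 2 carried part of this: without it the rise over GFP was 0.51 and that over Oct4 0.39. Without GFP replicate 1 and OSK replicate 1 the rise over GFP was 1.23. The difference of OSK from Oct4 was 0.49 without Oct4 replicate 2. Each of these fits leaves 1 library in a line, so the spread within that line is not measured. For SORD, whose enzyme turns sorbitol into fructose in the next step, the OSK difference from GFP was -0.40 (limma adjusted p = 0.185), and it fell by 0.61 in Sox2 (limma adjusted p = 0.0436). AKR1B1 lies on chromosome 7 at 134442350 to 134459284 on the minus strand.

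AKR1A1, the aldehyde reductase that acts on glucuronate and many other aldehydes, was lower in Oct4 and Sox2 than in GFP. The libraries gave normalized counts of 843, 881 and 861 in GFP, 712 and 659 in Oct4, 748 and 709 in Sox2, 844 and 836 in Klf4, and 796 and 771 in OSK. The Oct4, Sox2 and OSK libraries were all below the 3 GFP libraries, and the Klf4 libraries lay close to the lowest of them. The gene fell by 0.33 in Oct4 (SE 0.07, limma adjusted p = 0.00187) and by 0.24 in Sox2 (SE 0.07, limma adjusted p = 0.0133). In OSK the difference was -0.14 (limma adjusted p = 0.15) and in Klf4 -0.04 (limma adjusted p = 0.745). The Sox2 call was lost without Sox2 replicate 2 (-0.20, limma adjusted p = 0.12). AKR1A1 lies on chromosome 1 at 45550543 to 45570049 on the plus strand.

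AKR1C3, which makes testosterone from androstenedione and also acts on prostaglandins, was the only AKR1C gene above the filter, with 62 to 111 reads per library. Its normalized counts were 90.4, 112 and 94.3 in GFP, 79.0 and 73.25 in Oct4, 70.7 and 79.6 in Sox2, 86.75 and 70.8 in Klf4, and 78.05 and 107 in OSK. The single-factor libraries were all below the GFP libraries, yet no difference passed the test. The differences from GFP were -0.37 in Oct4 (limma adjusted p = 0.162), -0.39 in Sox2 (limma adjusted p = 0.132) and -0.33 in Klf4 (limma adjusted p = 0.23). In OSK it was -0.11, with a 95% interval from -0.53 to 0.31 (limma adjusted p = 0.711). The 95% intervals of all 4 differences from GFP included 0 (SE 0.20).

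AKR1C1, AKR1C2 and AKR1B10 were near 0 in every line and were not tested. AKR1C1 converts progesterone to a less active steroid, AKR1C2 inactivates dihydrotestosterone and AKR1B10 reduces retinal and other aldehydes. AKR1C1 had at most 7 reads in any library, and AKR1C2 and AKR1B10 at most 5. Each had its highest value in GFP replicate 1, at 6.95, 4.97 and 4.97 normalized counts, which is also the library with the most features detected. Outside that library AKR1C1 and AKR1B10 stayed at or below 1.16 and 1.10, and AKR1C2 at or below 3.03. AKR1B10 lies on chromosome 7 at 134527592 to 134541408 on the plus strand. These values allow no statement on a change between lines.

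CBR1, a cytosolic reductase of prostaglandins, quinones and anthracycline drugs, was lowest in Oct4. In normalized counts it stood at 494, 479 and 457 in GFP, 382 and 348 in Oct4, 463 and 418 in Sox2, 385 and 452 in Klf4, and 534 and 496 in OSK. Both Oct4 libraries lay below the other 9, and both OSK libraries lay above all 3 GFP libraries. CBR1 fell by 0.38 in Oct4 against GFP (SE 0.10, limma adjusted p = 0.00561), a call that was lost without Oct4 replicate 2 (-0.32, limma adjusted p = 0.0729). It was higher in OSK than in Oct4 by 0.50 (SE 0.11, limma adjusted p = 0.00143). Against GFP the OSK difference was 0.11 (95% interval -0.10 to 0.32). The Sox2 difference was -0.11 (limma adjusted p = 0.389) and the Klf4 difference -0.19 (limma adjusted p = 0.158). CBR1 lies on chromosome 21 at 36069941 to 36073166 on the plus strand and overlaps SETD4 on the minus strand.

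CBR3, a close relative of CBR1 with 77% identity over 831 coding bases, was low in all lines and highest in OSK. Libraries gave 2.98, 0 and 2.92 in GFP, 5.81 and 6.87 in Oct4, 5.61 and 5.99 in Sox2, 6.94 and 6.86 in Klf4, and 20.6 and 20.9 in OSK, in normalized counts. Both OSK libraries held 19 reads, the 6 single-factor libraries 5 to 7 and the GFP libraries 0 or 3. With every GFP library set at a floor of 3 reads, the highest count seen in GFP, the OSK mean of 20.8 was 6.97-fold higher. With so few reads this is not a lower limit of the change. The limma difference was 3.12 (SE 0.70, adjusted p = 0.00194). Since the OSK libraries alone brought the gene past the filter, this p is not separate support for the rise; with no filter it was 0.00823 (limma adjusted p). The fitted value depends on the pseudocount (1.92 with a pseudocount of 5).

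For CBR3 the differences of the single-factor lines from GFP did not pass: 1.55 in Oct4 (limma adjusted p = 0.0963), 1.44 in Sox2 (limma adjusted p = 0.114) and 1.66 in Klf4 (limma adjusted p = 0.0816). They did without GFP replicate 1, at 1.89, 1.78 and 2.00 (limma adjusted p = 0.0325, 0.0394 and 0.0263). OSK against Oct4, Sox2 and Klf4 gave 1.57, 1.68 and 1.46 (limma adjusted p = 0.119, 0.0957 and 0.209). With a pseudocount of 5 the first 2 of these passed, at 1.19 and 1.25 (limma adjusted p = 0.0308 and 0.0234). Since CBR3 passed the filter only through OSK, none of these p-values is separate support for a higher level in OSK. CBR3 lies on chromosome 21 at 36134912 to 36146566 on the plus strand, inside the antisense gene CBR3-AS1 at 36131767 to 36175815, and shares 35.7% of its 50-base stretches with it. The use of strand in counting is not given in the sources used here, so reads of the pair may not be told apart. CBR3-AS1 had 26.0 and 9.90 normalized counts in OSK and 47.7, 14.2 and 3.89 in GFP, a difference of 0.16 (limma adjusted p = 0.892).

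CBR4 forms, together with HSD17B8, the ketoacyl reductase of mitochondrial fatty acid synthesis. It was higher than in GFP in 3 of the 4 other lines. Its normalized counts were 475, 450.2 and 394 in GFP, 644 and 636 in Oct4, 693 and 758 in Sox2, 524 and 489 in Klf4, and 589.7 and 624 in OSK. All 8 factor libraries lay above the 3 GFP libraries. CBR4 rose by 0.72 in Sox2 (SE 0.09, limma adjusted p = 9.14e-06), by 0.55 in Oct4 (SE 0.09, limma adjusted p = 0.000199) and by 0.47 in OSK (SE 0.09, limma adjusted p = 0.000688). In Klf4 the difference was 0.21 (limma adjusted p = 0.0984), which passed without GFP replicate 1 (0.27, limma adjusted p = 0.0362).

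Klf4 was lower in CBR4 than Sox2, at -0.52 (SE 0.10, limma adjusted p = 0.000604), and lower than Oct4, at -0.34 (SE 0.10, limma adjusted p = 0.013). The second call was lost without Oct4 replicate 1 (-0.33, limma adjusted p = 0.0613) or Klf4 replicate 2 (-0.29, limma adjusted p = 0.0906). OSK differed from Sox2 by -0.26 (limma adjusted p = 0.0538, under the threshold in 5 of 15 alternatives, at 0.0314 to 0.0477), from Oct4 by -0.08 (limma adjusted p = 0.582) and from Klf4 by 0.26 (limma adjusted p = 0.0822). HSD17B8, its partner, rose by 0.64 in Oct4 (limma adjusted p = 0.0367) and 0.77 in Klf4 (limma adjusted p = 0.0158), and its differences were 0.30 in Sox2 (limma adjusted p = 0.324) and 0.14 in OSK (limma adjusted p = 0.674). CBR4 lies on chromosome 4 at 168863770 to 169010275 on the minus strand, and 1.15% of its 50-base stretches are shared with PALLD on the other strand.

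**Figure D3:**
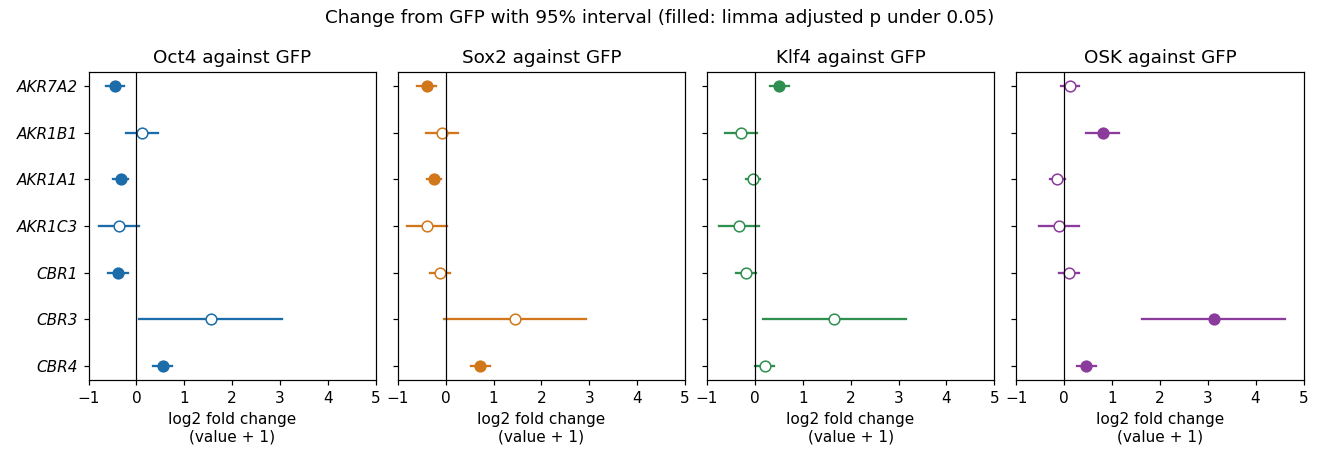
Difference from GFP as a log2 fold change of value + 1 (x axis) for the 7 tested genes (y axis), with a panel per line, the 95% interval as a bar and filled points at a limma adjusted p under 0.05. AKR7A2 lies to the left in Oct4 (-0.45) and Sox2 (-0.40) and to the right in Klf4 (0.51), AKR1B1 is filled in OSK alone (0.81), and CBR3 has the widest intervals.

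Set directly against the single-factor lines, OSK had 3 of the 7 genes higher than Oct4 (AKR1B1, AKR7A2 and CBR1) and none lower, where 40.3% of all genes changed (18.4% higher, 21.9% lower). Against Sox2, 2 were higher (AKR1B1 and AKR7A2; 40.5% of all genes changed, 20.0% higher and 20.5% lower). Against Klf4, AKR1B1 was higher and AKR7A2 lower (21.5% of all genes changed, 9.56% higher and 11.9% lower). AKR1B1 was thus called in all 3 comparisons, and with the largest difference against Klf4, the line in which its mean was lowest (1087 ± 24.0, SD, n = 2). These comparisons share the OSK libraries.

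Between the single-factor lines, Klf4 stood apart from both others in 3 genes: AKR7A2 and AKR1A1 were higher and CBR4 lower, against Oct4 (41.7% of all genes changed, 20.0% higher and 21.8% lower) and against Sox2 (40.8%, with 20.7% higher and 20.1% lower). AKR1A1 was higher in Klf4 by 0.29 than in Oct4 (limma adjusted p = 0.00691), which did not pass without Oct4 replicate 2 (0.24, limma adjusted p = 0.0661). It was higher by 0.21 than in Sox2 (limma adjusted p = 0.0492), a call lost in 11 of 14 alternatives. Sox2 and Oct4 differed in none of the 7 by limma, where 33.4% of all genes changed (15.4% higher, 18.0% lower). For 1 gene, CBR1, the unadjusted limma value was under 0.05 (0.27, limma adjusted p = 0.0647). On the same comparison edgeR and DESeq2 on recovered reads also called 0, and limma after TMM scaling called CBR1 (0.29, adjusted p = 0.0492).

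Some AKR and CBR genes are known targets of NRF2 (gene NFE2L2), a transcription factor that is held down by KEAP1 and binds antioxidant response elements when cells meet oxidants or electrophiles. The 250 bases before the RefSeq start site were searched for the core letters of this element, TGACNNNGC, on both strands in the 8 genes with an entry (AKR1B10 and CBR3 have none). It occurred in 2 of the 8, AKR7A2 and CBR1, against 10.9% of 35116 promoters of the same length. A gene with several start sites was counted if any of its windows matched, whereas the share over all promoters counts each window. A sequence of AKR7A2 and of CBR1 is shown, from RefSeq (GRCh38.p14), read 5′ to 3′ along the gene, with the matches in capitals. AKR7A2 (chr1:19312147-19312396, minus strand) has 3 matches, in a window of 78.8% G and C, beginning 167, 156 and 95 bases before the start. CBR1 (chr21:36069774-36070023, plus strand) has 1, beginning 159 bases before the start.
AKR7A2 promoter: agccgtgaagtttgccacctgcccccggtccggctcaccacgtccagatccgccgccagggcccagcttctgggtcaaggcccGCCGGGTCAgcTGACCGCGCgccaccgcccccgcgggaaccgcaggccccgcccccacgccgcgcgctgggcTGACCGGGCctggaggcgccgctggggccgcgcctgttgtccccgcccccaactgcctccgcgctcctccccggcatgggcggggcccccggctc
CBR1 promoter: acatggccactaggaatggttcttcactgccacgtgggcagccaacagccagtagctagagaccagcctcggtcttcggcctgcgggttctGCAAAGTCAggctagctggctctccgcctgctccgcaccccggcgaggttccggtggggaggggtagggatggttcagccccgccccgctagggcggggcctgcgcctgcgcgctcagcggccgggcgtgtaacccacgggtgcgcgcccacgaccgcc

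A match of these letters is a description and not a site of binding. Letters of the motifs of the delivered factors were searched in the same windows. The octamer ATGCAAAT, known for Oct4, was in 0 of the 8 (1.63% of all promoters) and GGGNGTGG, a core of KLF sites, in 0 of the 8 (15.7%). ACAANG, a core of SOX sites, was in 3 of the 8, AKR1A1, AKR1B1 and AKR1C3 (30.9% of all promoters). AKR1B1 and AKR1C3 each also have a window without these letters.

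The RNA of NFE2L2, of the NRF2 inhibitor KEAP1 and of the classic target NQO1 was measured in the same comparisons. The level and activity of the NRF2 protein were not measured. NFE2L2 rose by 0.37 in Klf4 (limma adjusted p = 0.000615) and by 0.66 in OSK (limma adjusted p = 1.42e-06), and was -0.01 in Oct4 (limma adjusted p = 0.919) and -0.11 in Sox2 (limma adjusted p = 0.231). KEAP1 fell by 0.50 in Oct4 (limma adjusted p = 2.17e-05) and by 0.55 in Sox2 (limma adjusted p = 5.46e-06), the lines in which AKR7A2 fell, and was -0.02 in Klf4 and -0.07 in OSK (limma adjusted p = 0.826 and 0.458). NQO1, a quinone reductase, rose by 1.05 in Klf4 (limma adjusted p = 1.68e-05), 0.38 in Sox2 (limma adjusted p = 0.0328) and 0.39 in OSK (limma adjusted p = 0.0314), and was -0.20 in Oct4 (limma adjusted p = 0.284). AKR7A2 and NQO1 both rose in Klf4, and in Sox2 AKR7A2 fell and NQO1 rose. In OSK NQO1 rose and AKR7A2 was not called, and in Oct4 AKR7A2 fell and NQO1 was not called. Whether NRF2 or KEAP1 has a part in the changes of the reductases was not tested. CBR1 fell in Oct4 and was not called in the other 3 lines.

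Among 29 listed NRF2 genes, all of them tested, 6 rose and 12 fell in Oct4, 9 rose and 11 fell in Sox2, 8 rose and 9 fell in Klf4, and 9 rose and 6 fell in OSK. Over all genes tested, 20.1% rose and 17.2% fell in Oct4, 21.7% and 19.9% in Sox2, 17.6% and 16.0% in Klf4, and 19.7% and 20.0% in OSK. The list's median difference from GFP was -0.26, -0.17, -0.09 and 0.13 in these lines, beside -0.02, -0.02, -0.02 and -0.01 over all genes tested. By size, the leading genes in Oct4 were the exporter ABCC3 (2.62), UGDH (2.49), which makes UDP-glucuronate, and GCLM (1.84), a subunit of the enzyme that starts glutathione synthesis. In Sox2 they were the cystine transporter SLC7A11 (2.95), TRIM16 (2.88) and the haem oxygenase HMOX1 (-2.67). SLC7A11 also led in Klf4 (1.45) and OSK (2.55), with TXNRD1, thioredoxin reductase, at -1.07 and -1.31, NQO1 in Klf4 and the exporter ABCC1 in OSK (1.44). Each of these passed the limma threshold. Several also passed in lines where they did not lead: TXNRD1 fell and GCLM and UGDH rose in all 4 lines, ABCC1 rose in Oct4 and fell in Sox2 and Klf4, ABCC3 fell in Klf4 and TRIM16 fell in Oct4.

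Of 9 other aldo-keto reductases, 5 were tested, and 0 changed in Oct4, 3 in Sox2 (1 higher, 2 lower), 1 in Klf4 (higher) and 2 in OSK (1 higher, 1 lower). Over all genes tested the shares were 37.3% in Oct4 (20.1% higher, 17.2% lower) and 41.6% in Sox2 (21.7% higher, 19.9% lower). They were 33.5% in Klf4 (17.6% higher, 16.0% lower) and 39.7% in OSK (19.7% higher, 20.0% lower). For Oct4, limma left none of the 5 past the threshold, and neither did edgeR or DESeq2, and 0 had an unadjusted p under 0.05. The named ones are beta subunits of potassium channels, which have the AKR fold. KCNAB1 rose by 0.91 in Sox2, KCNAB2 fell by 0.30 in Sox2 and rose by 0.49 in Klf4 and 0.43 in OSK, and KCNAB3 fell by 1.02 in OSK. The median difference of the list was -0.14 in Oct4, -0.30 in Sox2, 0.39 in Klf4 and 0.11 in OSK, beside -0.02, -0.02, -0.02 and -0.01 over all genes. The Sox2 count of 3 was 0 without Sox2 replicate 1, and the OSK count of 2 was 1 without GFP replicate 1, OSK replicate 1 or OSK replicate 2.

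Of 35 other carbonyl and short-chain reductases, 30 were tested. In Oct4 11 rose and 4 fell, in Sox2 11 rose and 8 fell, in Klf4 9 rose and 6 fell, and in OSK 8 rose and 6 fell. Of all genes, 37.3% changed in Oct4 (20.1% higher, 17.2% lower) and 41.6% in Sox2 (21.7% higher, 19.9% lower). The shares were 33.5% in Klf4 (17.6% higher, 16.0% lower) and 39.7% in OSK (19.7% higher, 20.0% lower). The list's medians were 0.07, 0.07, 0.15 and 0.08, beside -0.02, -0.02, -0.02 and -0.01 over all genes. RDH5, a retinol dehydrogenase of the visual cycle, rose by 1.28 in Oct4, 2.60 in Klf4 and 1.24 in OSK. RDH10, which makes retinal from retinol, rose by 1.58 in Oct4 and 0.62 in Klf4. DHRS7 rose by 1.19 in Oct4, 0.67 in Sox2 and 0.42 in Klf4. HSD17B14 fell in all 4 lines (-0.77 in Oct4, -0.93 in Sox2, -1.09 in Klf4 and -1.62 in OSK). RDH13 fell in Oct4 (-1.12) and Sox2 (-1.22), and so did DECR2 (-0.71 and -0.89). HSD17B7, an enzyme of cholesterol synthesis, rose in all 4 lines (0.84 in Oct4, 0.46 in Sox2, 0.31 in Klf4 and 1.20 in OSK). DHRS1 rose by 1.18 in Klf4, and its differences in the other lines did not pass (-0.10 in Oct4, 0.17 in Sox2 and 0.11 in OSK).

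In the pathway of CBR4, mitochondrial fatty acid synthesis, all 9 listed genes were tested. In Oct4 1 rose (HSD17B8) and in Sox2 1 fell (ACSF3, -0.30). In Klf4 2 rose, HSD17B8 and the ketoacyl synthase OXSM (0.38), and in OSK 2 rose, OXSM (0.53) and the acyl carrier protein NDUFAB1 (0.31). Of all genes tested, 37.3% changed in Oct4 (20.1% higher, 17.2% lower) and 41.6% in Sox2 (21.7% higher, 19.9% lower). The shares were 33.5% in Klf4 (17.6% higher, 16.0% lower) and 39.7% in OSK (19.7% higher, 20.0% lower). The medians were -0.06 in Oct4, -0.06 in Sox2, 0.17 in Klf4 and 0.04 in OSK, beside -0.02, -0.02, -0.02 and -0.01 over all genes. CBR4 itself is not on this list. Counts this small rested on single libraries: that in Oct4 was 0 without GFP replicate 1, GFP replicate 2 or Oct4 replicate 2, and that in Sox2 was 0 without GFP replicate 2 or either Sox2 replicate. The count of 2 was 0 in Klf4 without Klf4 replicate 1 and in OSK without OSK replicate 2, and 1 in Klf4 without GFP replicate 1 or 3 and in OSK without OSK replicate 1.

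**Figure D4:**
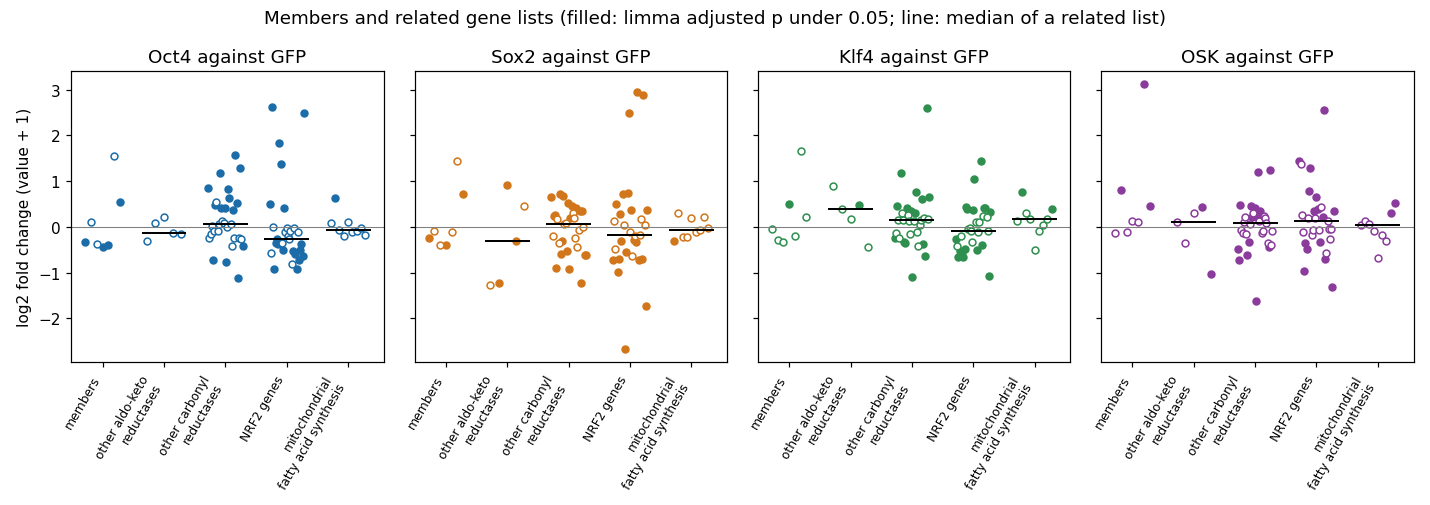
Difference from GFP as a log2 fold change of value + 1 (y axis) for the 7 tested reductases and 4 lists of related genes (x axis), with a panel per line. Each point is a gene, filled at a limma adjusted p under 0.05, and horizontal lines are list medians. In Sox2 the NRF2 genes spread widest, from -2.67 (HMOX1) to 2.95 (SLC7A11).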

How the data were processed

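PolyA RNA was sequenced from 11 libraries in 5 groups, taken from the sample titles. Per the labels' protocols, TRIzol was used for extraction, oligo(dT) beads for enrichment and the NEBNext Ultra II RNA kit for the libraries. STAR 2.7.1a, featureCounts 1.6.2 and the builds GRCh38/hg38 and GRCm38/mm10 are named in the submitters' processing notes, with no role. The annotation, the use of strand and the treatment of reads that fit several genes are not given in the sources used here. The deposited values are a signal in normalized counts: from the values, read counts divided by 1 factor per library and rounded. In every library 100% of values up to 200 were whole multiples of 1 read (tolerance 0.0061), and at least 99.98% of all values were, so whole reads were recovered.

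The main test was limma 3.58.1 (R 4.3.3; lmFit, eBayes with trend) on log2(value + 1), with a pseudocount of 1, over genes that reached 10 in 2 or more libraries. All 11 libraries entered 1 fit (6 residual and 9.21 prior degrees of freedom), Benjamini-Hochberg adjustment covered all genes tested, and 10 comparisons were made. edgeR 4.0.16 and DESeq2 1.42.0 on recovered reads, other pseudocounts, filters and scalings, a replicate block, only the groups compared and leaving out each replicate were alternatives. Fits without a replicate kept the genes that passed the filter on all 11 libraries. Without a replicate of a factor line, that line had 1 library, so the spread in its p-values came from the other groups. The procedure was also run on simulated counts with genes changed in OSK alone. That setting is unlike these data, so its outcome is not used here. Levels per kilobase used GENCODE release 29 exon lengths, and promoters came from RefSeq. The floor of 3 reads is a fixed setting and does not bound the counting error. All 10 genes are named. From each related list, up to 3 genes per comparison with GFP are named, those past the threshold with the largest change and a mean of at least 50 in a compared group, and NFE2L2, KEAP1, NQO1, SORD and HSD17B8 in any case. CBR3-AS1 and the markers were added for context. The genes and lists were chosen with earlier results of these data known.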

Additional observations from a re-analysis of the deposited data

How the results depend on the processing

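Of 151 recomputed counts of changed reductases, 144 stayed within 1.5 times the reported count. The other 7 were 3 for Klf4 against GFP without GFP replicate 1, alone or together with OSK replicate 1 (an alternative chosen after seeing the data), 4 for OSK against Sox2 with only those groups in the fit, 1 for OSK against Klf4 without Klf4 replicate 1, OSK replicate 1 or OSK replicate 2, and 1 for Sox2 against Oct4 with TMM scaling; the cause was not tested. Without any 1 of the GFP libraries, 3 reductases changed in OSK against GFP, CBR3 among them. The filter was set once on all 11 libraries, so CBR3 stayed among the genes tested whichever library was left out. This steady count is therefore partly fixed by the filter. Of 256 counts over the related lists, 222 stayed within 1.5 times the reported count. For the other aldo-keto reductases, DESeq2 and no filter each gave 1 in Sox2, and left-out libraries gave 0 to 2 in Sox2 and 0 to 2 in OSK (0 without GFP replicate 1 and OSK replicate 1). For the other carbonyl reductases, no filter gave 12 in Sox2, and left-out libraries gave 8 to 16 in Klf4. For mitochondrial fatty acid synthesis in Oct4, DESeq2, no filter and only the groups compared each gave 0, and left-out libraries 0 to 1. In Sox2 edgeR with TMM gave 2, DESeq2 0 and left-out libraries 0 to 1. In Klf4 DESeq2, no filter, only the groups compared and the replicate block each gave 1, and left-out libraries 0 to 2. In OSK DESeq2 and the replicate block each gave 1, and left-out libraries 0 to 2.

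Of 1046 recomputed differences of single reductases, 988 kept direction and side of the threshold, 21 lost the call, 21 gained it and 16 changed sign. None of the 16 belonged to a called difference, and their lowest limma or edgeR adjusted p under the alternative was 0.771. Their values were as follows. AKR1B1 in Oct4 against GFP ranged from -0.091 to 0.32 over left-out libraries. AKR1B1 in Sox2 against GFP ranged from -0.22 to 0.056 over left-out libraries. AKR1B1 in Sox2 against Oct4 ranged from -0.40 to 0.0089 over left-out libraries. AKR1C3 in OSK against GFP ranged from -0.33 to 0.11 over left-out libraries. AKR1C3 in OSK against Klf4 ranged from -0.0063 to 0.44 over left-out libraries. AKR1C3 in Sox2 against Oct4 ranged from -0.10 to 0.065 over left-out libraries and was 0.0055 by edgeR with TMM. AKR1C3 in Klf4 against Oct4 ranged from -0.10 to 0.19 over left-out libraries. AKR1C3 in Klf4 against Sox2 ranged from -0.082 to 0.21 over left-out libraries. CBR1 in Klf4 against Sox2 ranged from -0.19 to 0.040 over left-out libraries. Of the 24 called differences 17 held in every alternative. CBR3 in OSK against GFP, which passed the filter only through the OSK libraries, ranged from 1.92 to 3.55 and was not tested under the filter on mean CPM.

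With the replicate number as a block, 4, 3, 1 and 3 reductases changed in Oct4, Sox2, Klf4 and OSK against GFP, 3, 2 and 2 in OSK against Oct4, Sox2 and Klf4, 0 in Sox2 against Oct4, and 3 and 2 in Klf4 against Oct4 and Sox2, where AKR1A1 lost its call (limma adjusted p = 0.0761). Same-numbered libraries correlated between -0.07 and 0.44 in their deviations, 2 of 20 pairs above 0.1, and 3 of 11 libraries correlated best with their own number. The pairs above 0.1 were GFP 1 with OSK 1 (0.44) and GFP 2 with OSK 2 (0.31), while GFP 3 with OSK 2 gave 0.34. Deviations in a group of 2 mirror each other, so these values are not independent and cannot settle whether libraries are paired. The numbers were not taken to pair libraries in the main test. With 2 libraries per factor line, the number of libraries and, for AKR1C and CBR3, the few reads limit the precision.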
